A study of Mus musculus with 15 samples.

Results

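Hearts labelled dabigatran were compared with hearts labelled untreated, gene by gene, in a bulk RNA-seq study of myocardial ischemia-reperfusion. The comparison rests on 4 of the 11 libraries in the deposited table, from hearts Dabi-202 and Dabi-204 (dabigatran) and hearts Cont_17 and Cont_19 (untreated). All 13541 of the 16658 listed genes that reached a log2 CPM of at least 0 in at least 3 of the 11 libraries were tested. CPM is a gene's read count scaled to a common library size, and every level below is on the log2 CPM scale.

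The animals were male wild-type C57BL/6 mice, 8 to 10 weeks old. Dabigatran, named in the labels as a factor IIa inhibitor (fIIai), was given at 10 mg/kg for 7 days before surgery and again from 2 h after it. The surgery tied the left anterior descending artery for 90 min and was followed by 24 h of reperfusion. RNA came from heart pieces that held the infarct together with the muscle around it. The untreated group carries only the label "untreated": the labels describe surgery once for the whole study and name no vehicle. Drug exposure before the injury and exposure after it cannot be told apart in this design. The other 7 libraries are used as context and for the shared estimate of spread. They are 3 sham hearts, 2 hearts of mice given the factor Xa inhibitor rivaroxaban (3 mg/kg for 7 days) and 2 of mice given activated protein C (aPC, 1 mg/kg, 30 min before surgery). Rivaroxaban and aPC were also given again from 2 h after surgery. Of the 15 samples in the labels, 4 have no column in the table and were not analysed here, among them 1 dabigatran and 1 untreated sample.

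Thrombin (factor IIa) is the last protease of the coagulation cascade. It cuts fibrinogen to fibrin, activates platelets, and signals to endothelial cells, fibroblasts, smooth muscle and leukocytes through protease-activated receptors, which it switches on by cutting their outer end. Bound to thrombomodulin it instead activates protein C, which acts against coagulation and inflammation. Dabigatran occupies the active site of thrombin. After an infarct, neutrophils and then monocytes enter the injured muscle, debris is cleared by phagocytes, fibroblasts lay down matrix, and surviving cardiomyocytes change their contractile and metabolic genes.

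The 4 libraries held between 26203566 (Dabi-202) and 36135006 (Dabi-204) reads on listed genes. The untreated hearts were the least alike of all replicates. The SD of the log2 difference between Cont_17 and Cont_19 was 0.792 over tested genes, against 0.483 between the dabigatran libraries and 0.313 to 0.397 within the other groups. Because the fit shares 1 estimate of spread over the 5 groups, its standard errors run small for the untreated pair, so counts from the 4 libraries alone are given beside the main gene groups. Heart muscle genes were abundant in all 4 libraries, with Myh6, the main cardiac myosin heavy chain, between 14.31 and 15.54. No label says which hearts were handled together, and p-values measure the spread between these libraries only.

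The dabigatran hearts differed from the untreated hearts in many genes. In limma's fit, 1180 genes (8.71% of those tested) were called higher with dabigatran and 688 (5.08%) lower, at a Benjamini-Hochberg adjusted p under 0.05. Values of the dabigatran and untreated pairs did not overlap in 3661 genes (27.0%) with dabigatran higher and in 2914 (21.5%) with dabigatran lower, and all 1868 called genes were among them. At least 2-fold differences were seen in 739 of the genes called higher and 324 of those called lower. The median log2 fold change of all tested genes was 0.05. Centring each library on its median shifted that median by -0.11 and changed the split of calls from 1180 higher and 688 lower to 907 and 1028, while quantile normalization gave 1034 and 914. With the 4 libraries alone, 126 genes (0.931%) were called higher and 44 (0.325%) lower, and all 170 were also called with the 11 libraries. Leaving out Dabi-202 gave 465 higher and 197 lower, and leaving out Cont_17 gave 2994 and 1933.

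The levels in the other 9 libraries show on which side a difference lay. Both dabigatran libraries were above all 9 others in 1781 tested genes (13.2%) and below all 9 in 1069 (7.89%). Both untreated libraries were above all 9 others in 811 genes (5.99%) and below all 9 in 883 (6.52%). Of the 1180 genes called higher, the dabigatran pair lay above every other library in 853, and the untreated pair lay below every other library in 365. Of the 688 called lower, the dabigatran pair was below all others in 345 and the untreated pair above all others in 295. These counts describe where values lay and carry no test. Among gene lists the side differed: monocyte, neutrophil, cardiac stress and fatty acid genes mostly had the dabigatran pair outside, while chaperones of the endoplasmic reticulum, resident macrophage markers and glucocorticoid-responsive genes mostly had the untreated pair outside.

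**Figure D1:**
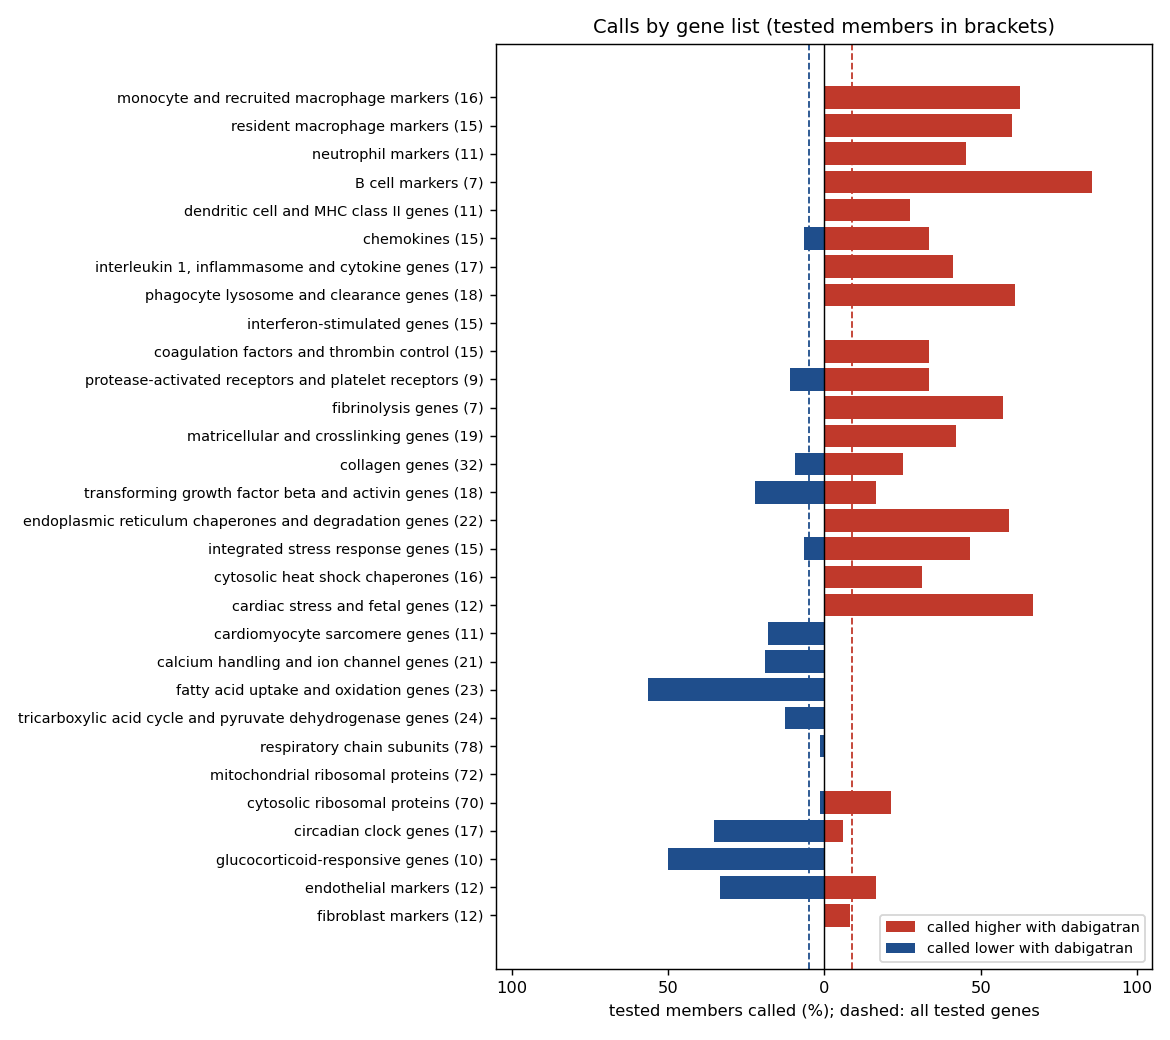
Bars give the percent of the tested members of each gene list that were called higher (right, red) or lower (left, blue) with dabigatran than in untreated hearts, with the number tested in brackets. Dashed lines mark the 8.71% and 5.08% of all tested genes called, and the B cell, cardiac stress and monocyte lists reach furthest to the right, the fatty acid and glucocorticoid-responsive lists furthest to the left.

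**Figure D2:**
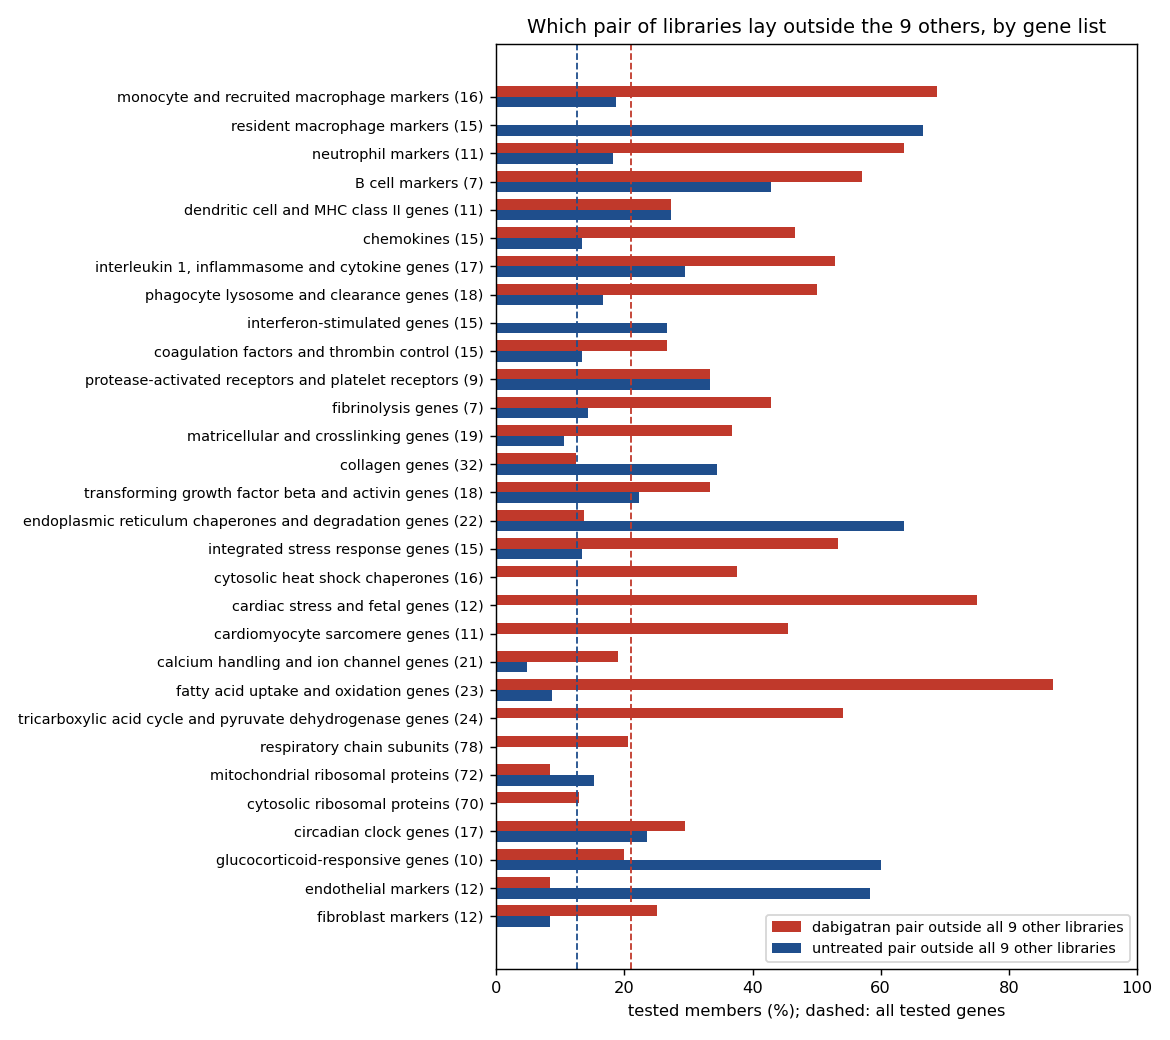
Bars give the percent of each list's tested members for which both dabigatran libraries (red) or both untreated libraries (blue) lay outside the range of the 9 other libraries, above or below. Dashed lines give the same percents over all tested genes, and the resident macrophage, chaperone, glucocorticoid-responsive and endothelial lists are among those with the longer blue bar.

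Among the largest rises were genes of the injured heart, of matrix repair and of myeloid cells. Spp1, which encodes osteopontin, a secreted matrix protein made by macrophages in healing tissue, was at 8.20 and 7.74 with dabigatran and at 4.40 and 2.93 in untreated hearts. Both dabigatran values were above the 3.14 to 5.35 of the 7 context libraries, and the log2 fold change was 4.30 ± 0.69 (SE, adjusted p = 0.00403). Tnc, the matrix glycoprotein tenascin C of wound borders, was at 6.34 and 7.17 against 3.25 and 2.86, a log2 fold change of 3.70 ± 0.67 (adjusted p = 0.00691). Inhba, the subunit that forms activin A, was at 4.57 and 4.21 against 1.03 and 0.76, a rise of 3.50 ± 0.45 (adjusted p = 0.0014). Ccr2, the receptor that brings monocytes out of the bone marrow, was at 5.43 and 5.84 against 2.19 and 2.27 (3.41 ± 0.34, adjusted p = 0.000599). The group also held Sprr1a, a stress-induced small proline-rich protein (log2 fold change 3.95), Rasgrp4, a Ras activator of myeloid and mast cells (3.82), Il1f9, an interleukin 1 family cytokine (3.60), and the myeloid surface receptors Cd300lb (3.39), Clec4n (3.38) and Pilra (3.37). Derl3, a factor for removing misfolded proteins from the endoplasmic reticulum, led the list with 5.29 and is described with its pathway below. Largest rises and falls were taken among genes with a mean log2 CPM of at least 1 over the 4 libraries, without predicted genes. Of the 12 largest rises the dabigatran pair lay above all 9 other libraries in 11, all but Derl3. The untreated pair lay below all 9 others in 4, Derl3, Ccr2, Cd300lb and Rasgrp4, so that the last 3 are in both counts. All 12 stayed called with the 4 libraries alone, but they were picked by their difference in these same libraries, so that is no separate check.

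The 12 largest falls held signalling and metabolic genes of heart muscle, and here the untreated pair was usually the unusual one. Grk5, a kinase that desensitizes adrenergic receptors, was at 6.48 and 6.14 with dabigatran and at 9.42 and 8.57 in untreated hearts, while the 7 context libraries held 5.51 to 6.16. The log2 fold change was -2.69 ± 0.28 (adjusted p = 0.000662). Camk2b, a subunit of a calcium-dependent kinase, was at 4.55 and 4.81 against 7.48 and 7.28 (-2.70 ± 0.23, adjusted p = 0.000347). Inhbb, the subunit of activin B, was at 4.35 and 4.32 against 7.68 and 6.14, so that the 2 activin subunits moved in opposite directions. Ucp3, a mitochondrial carrier protein of muscle that follows fatty acid use, was at 4.35 and 3.56 against 7.29 and 7.02 (-3.20 ± 0.62, adjusted p = 0.00945). The others were Tmem82 (-3.54), Serpina3f (-3.08), the organic anion transporter Slc10a6 (-2.91), Sytl1 (-2.91), the hypoxia-pathway factor Hif3a (-2.91), the aminopeptidase Lvrn (-2.80), the arrestin-related Arrdc2 (-2.74) and the transcription factor Zbtb16 (-2.62). The untreated pair lay above all 9 other libraries in 9 of the 12 and the dabigatran pair below all 9 in 3, Ucp3 being in both counts. With the 4 libraries alone 6 of the 12 stayed called. Sytl1 was the least stable, called in 4 of the 11 fits that each left out 1 library.

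**Figure D3:**
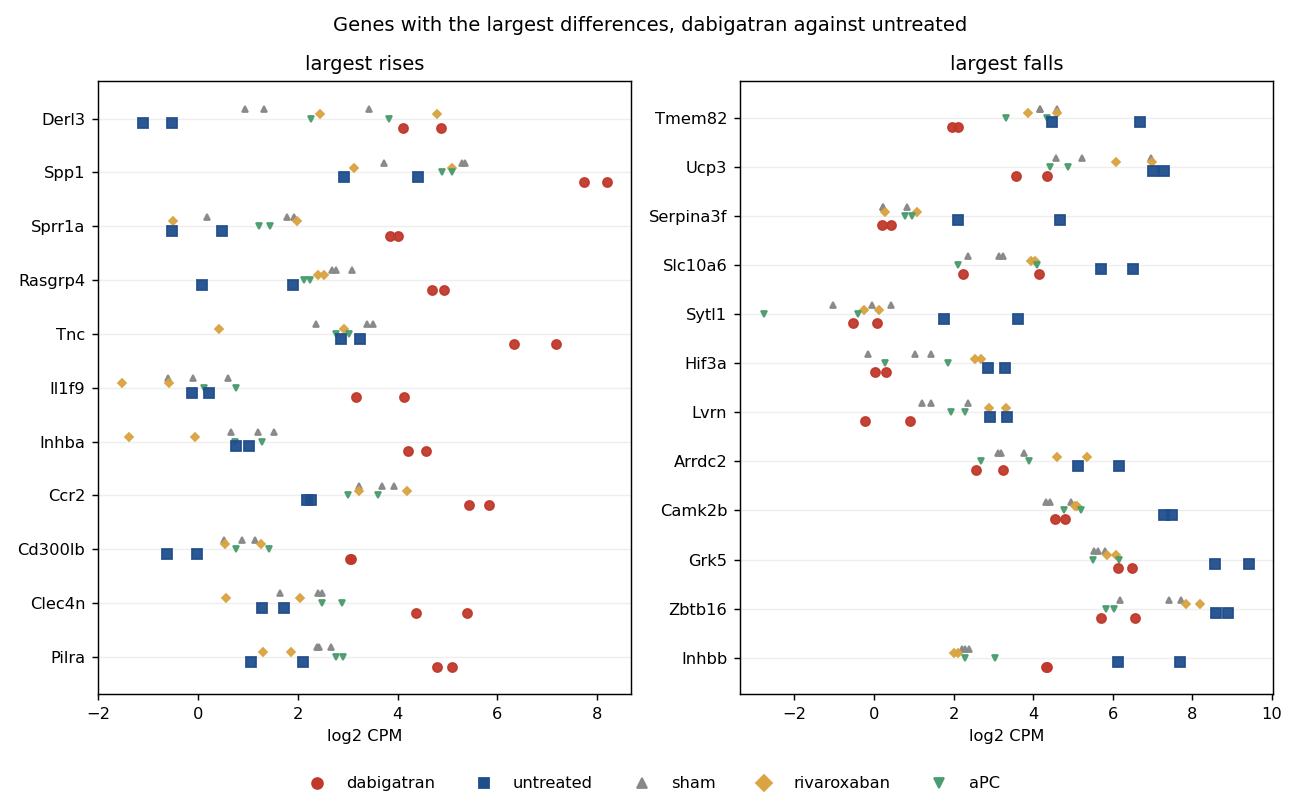
Each point is 1 library's log2 CPM for the named genes among the 12 largest called rises (left, 11 shown) and the 12 largest called falls (right, 12 shown). Red circles (dabigatran) sit to the right of every other marker for 10 of the 11 rises, and blue squares (untreated) sit to the right of every other marker for 9 of the 12 falls.

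Genes of the thrombin system itself changed moderately. The targeted protein is a circulating protease made in the liver, so no transcript here checks the drug. Of the thrombin receptors in heart tissue, F2r, the main protease-activated receptor, was at 4.98 and 5.27 with dabigatran and at 5.59 and 6.05 in untreated hearts. It fell by 0.69 on the log2 scale (SE 0.19, adjusted p = 0.0412), and its dabigatran values lay within the 4.81 to 5.28 of the context libraries. F2rl1, a receptor of the same family cut by other proteases such as factor Xa, went the other way at 1.00 and 1.23 against -1.20 and -0.19 (1.81 ± 0.44, adjusted p = 0.0249). F2rl3, the low-affinity thrombin receptor, was at -0.04 and 0.60 against -0.16 and 0.93, and the pairs overlapped. The prostacyclin receptor Ptgir (3.72 and 3.55 against 2.59 and 2.12) and the thromboxane receptor Tbxa2r (1.80 and 1.43 against -0.49 and -0.84) were called higher, giving 3 higher and 1 lower among the 9 tested receptors of proteases and platelets. Under the stricter filter 1 receptor was called higher, and after median centring or quantile normalization 2 were called lower. The F2r call was lost when any library other than Cont_17 was left out, and without Dabi-202 only 1 receptor was called higher. None of the 4 was called with the 4 libraries alone.

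Of 15 tested coagulation factors and regulators of thrombin, 5 rose and none fell, with a median log2 fold change of 0.68. The von Willebrand factor gene Vwf, an endothelial product that tethers platelets, was at 6.88 and 7.02 against 6.13 and 6.38, and the context libraries held 6.64 to 7.05, so that the untreated pair was the low one. Procr, the endothelial protein C receptor, was at 3.40 and 2.73 against 1.71 and 1.53 (1.44 ± 0.39, adjusted p = 0.0372). F10, the zymogen of factor Xa, was at 4.82 and 3.69 against 2.51 and 1.51, and F7, the partner of tissue factor, at 2.81 and 2.47 against 1.34 and 0.03. Tfpi2, a Kunitz-type protease inhibitor, was the fifth. In the initiating and braking positions, F3, tissue factor, was at 3.95 and 3.97 against 3.33 and 3.82 (log2 fold change 0.38, adjusted p = 0.311). Thbd, thrombomodulin, was at 8.11 and 6.72 against 7.43 and 7.38 (0.01, adjusted p = 0.987), with the dabigatran hearts on either side of the untreated ones. The count of 5 fell to 1 without Dabi-202, sham replicate 006 or Cont_19 and to 2 without sham replicate 003 or 007 or under the stricter filter, to 3 after quantile normalization, and to 0 with the 4 libraries alone.

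Fibrinolysis genes, which turn plasminogen into the fibrin-cutting enzyme plasmin, changed more. Plau, urokinase, was at 4.84 and 5.07 with dabigatran against 2.32 and 1.86, with 2.41 to 3.30 in the context libraries, and rose by 2.87 ± 0.29 (adjusted p = 0.000599). Serpinb2, a urokinase inhibitor of stimulated macrophages, was at 3.24 and 1.98 against -2.19 and -2.27 (4.84 ± 0.65, adjusted p = 0.00177). Anxa2 and S100a10, which together form a cell-surface receptor for plasminogen, rose by 1.90 ± 0.26 and 1.12 ± 0.24. The other tested members gave no call. Plaur, the urokinase receptor, was at 6.29 and 5.62 against 5.33 and 5.70, and Plat, tissue plasminogen activator, at 4.85 and 5.29 against 5.28 and 5.76. In all, 4 of 7 rose, and 3 of them, all but S100a10, stayed called with the 4 libraries alone. Of 6 tested genes for esterases and efflux pumps of the kind that act on the oral prodrug of dabigatran, only the carboxylesterase Ces1d was called, lower at 5.17 and 5.27 against 5.95 and 6.71. It was not called when Cont_19 or either dabigatran heart was left out.

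Monocyte, neutrophil and phagocyte genes were higher in the dabigatran hearts. In bulk tissue, more cells of a type and more RNA of a gene per cell cannot be told apart. Of 16 monocyte and recruited macrophage markers, 10 rose and none fell, against 8.71% and 5.08% of all tested genes. The pairs did not overlap in 14, all with dabigatran higher, against 27.0% of all tested genes. The median log2 fold change was 1.76, against 0.05 over all tested genes. Lyz2, lysozyme of myeloid cells, was at 8.23 and 8.57 with dabigatran and at 6.21 and 6.18 in untreated hearts (2.20 ± 0.19, adjusted p = 0.000347). Of its dabigatran values 8.23 lay within and 8.57 just above the 7.30 to 8.53 of the context libraries, while both untreated values lay below that range. Over the 16 markers the dabigatran pair lay above all 9 other libraries in 11 and the untreated pair below all 9 in 3. Arg1, arginase of wound macrophages, was at 7.27 and 7.34 against 5.35 and 3.33, and Fcgr1, the high-affinity receptor for immunoglobulin G, at 4.27 and 4.38 against 2.62 and 2.38. Itgam, the integrin CD11b, was at 7.72 and 7.39 against 6.62 and 6.05. The summed level of the 16 markers ran from 1039 to 1180 CPM with dabigatran, from 304 to 373 CPM in untreated hearts and from 276 to 628 CPM in the other 7 libraries. Without Dabi-202 the count was 5, and with the 4 libraries alone it was 3.

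Some neutrophil markers rose and others lay lower. Of 11 tested markers 5 rose and none fell, with a median of 1.76. The mean was higher with dabigatran in 7 and lower in 4, and in 2 of those 4 the untreated pair lay above all 9 other libraries. Csf3r, the receptor for granulocyte colony-stimulating factor, was at 7.63 and 7.49 against 4.25 and 4.35 (3.26 ± 0.42, adjusted p = 0.00142), and Cxcr2, the receptor for neutrophil-attracting chemokines, at 6.51 and 5.21 against 2.79 and 2.93. S100a8 and S100a9, the subunits of calprotectin, were at 7.78 and 6.61 and at 8.17 and 6.78 with dabigatran, against 4.30 and 4.88 and against 4.81 and 5.47. Mmp9, a gelatinase stored in neutrophils, was at 6.67 and 6.89 against 3.62 and 4.01. Ngp, a granule protein of immature neutrophils, lay the other way at 0.31 and -2.59 against 2.12 and 1.83, with a log2 fold change of -3.12 ± 0.96 that did not pass (adjusted p = 0.0562). It was called lower in 3 of the 11 fits that each left out 1 library, and 1 marker was called lower after median centring, with log2(CPM + 1) and with voom. The summed marker level was 604 and 1064 CPM in the dabigatran libraries, 136 and 207 CPM in the untreated and 23.4 to 122.7 CPM in the other 7. Dabi-202 was the higher of the dabigatran hearts for the summed level, and without it 2 of the 5 calls were left. Ly6g, Mmp8 and Ngp had no read in at least 1 of the 11 libraries.

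Resident macrophage markers also rose, but towards the level of the other groups rather than above it. Of 15 markers 9 were called higher, with a median of 0.85. Csf1r, the receptor for macrophage colony-stimulating factor, was at 6.28 and 6.75 against 5.13 and 5.02, with 5.78 to 6.52 in the context libraries (1.45 ± 0.18, adjusted p = 0.0013). Adgre1, which encodes the F4/80 antigen, was at 4.96 and 5.11 against 3.62 and 2.67, and the complement receptor Vsig4 at 1.46 and 1.52 against -0.21 and -0.02. Cbr2, a carbonyl reductase of resident macrophages, was at 3.92 and 4.29 against 2.92 and 2.95 while every context library was at 4.32 or above. The untreated pair lay below all 9 other libraries in 10 of the 15 and the dabigatran pair above all 9 in none. Summed levels were 626 and 684 CPM with dabigatran, 360 and 501 CPM in untreated hearts and 456 to 866 CPM elsewhere. Without Dabi-204 the count was 5, and with the 4 libraries alone it was 0.

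B cell markers were at low levels and 6 of 7 tested rose, with a median of 2.33. Cd37, a tetraspanin of mature B cells and other leukocytes, was at 3.76 and 3.89 against 2.01 and 1.66 (1.99 ± 0.22, adjusted p = 0.000808). Ighm, the immunoglobulin M heavy chain, was at 2.92 and 3.81 against 0.63 and 1.44, and Cd79a, a chain of the B cell receptor, at 0.73 and 1.66 against -0.55 and -1.03. The summed level was 42.4 and 67.7 CPM with dabigatran, 10.6 and 11.5 CPM in untreated hearts and 18.9 to 41.4 CPM elsewhere. The dabigatran sums were above and the untreated sums below those of every other library, Dabi-202 by a narrow margin. By gene, the dabigatran pair lay above all 9 other libraries in 4 of the 7 and the untreated pair below all 9 in 3. The count fell to 3 without Dabi-202 or sham replicate 003, to 2 without Dabi-204, and to 0 with the 4 libraries alone, and it was 3 under the stricter filter. In the antigen presentation list 3 of 11 rose. H2-DMb1 and H2-DMa, which load peptides onto class II molecules, were at 3.27 and 3.57 against 0.34 and 0.46 and at 3.17 and 3.22 against 0.81 and 0.79. The class II genes themselves spread widely in untreated hearts, with Cd74, the invariant chain, at 4.66 in Cont_17 and 6.48 in Cont_19 against 6.50 and 7.21. Leaving out Cont_19 raised the count to 7. Of 13 T and natural killer cell markers only Trbc2 and Cd4 passed the filter. Neither was called in limma's fit, where 1 had an unadjusted p under 0.05, and voom called 1.

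**Figure D4:**
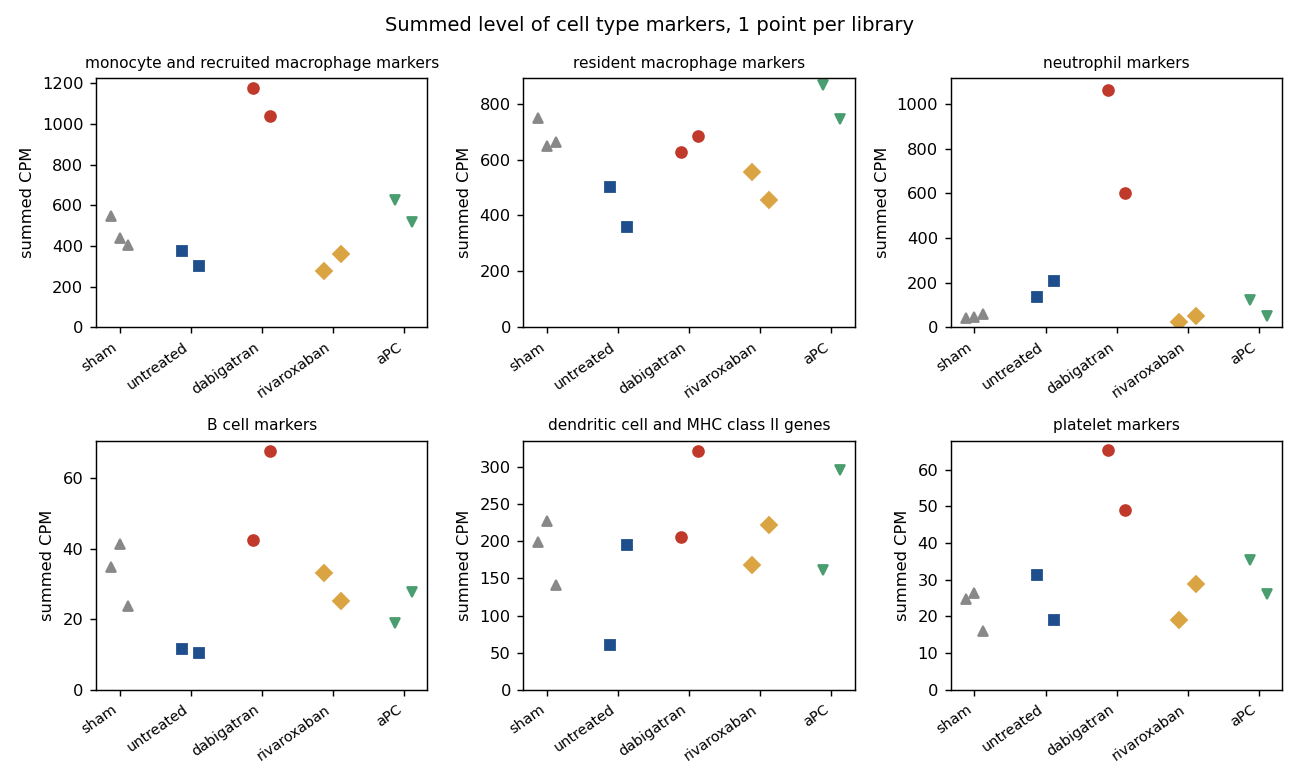
Each point is 1 library's summed CPM over all listed markers of a cell type, by group, on linear axes that start at 0. Monocyte, neutrophil, B cell and platelet sums are above every other library in both dabigatran hearts, resident macrophage sums are not, and the sum of dendritic cell and MHC class II genes overlaps those of the sham, rivaroxaban and aPC hearts.

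Of 15 tested chemokines 5 rose, 1 fell and 9 did not pass. Ccl7, a ligand of Ccr2, was at 6.36 and 5.83 with dabigatran and at 3.19 and 3.30 in untreated hearts (2.85 ± 0.29, adjusted p = 0.000599). Ccl12, another such ligand, was at 3.43 and 3.54 against 1.37 and 0.12, and Ccl24, which draws eosinophils, at 3.96 and 3.67 against 1.42 and 0.63. Ccl9 rose by 1.69 ± 0.39. Cxcl12, which holds leukocytes and progenitors in tissue through Cxcr4, was at 8.08 and 8.20 against 6.99 and 6.71, within the 7.75 to 8.36 of the context libraries. Cxcl14 fell, at 4.67 and 4.57 against 6.32 and 6.15. The neutrophil chemokines Cxcl1 (5.47 and 3.84 against 3.72 and 5.19) and Cxcl5 (6.83 and 4.68 against 4.97 and 5.89) overlapped between the pairs. With the 4 libraries alone Ccl7, Ccl24 and Cxcl12 were called higher and Cxcl14 lower. Of the receptors, Ccr1 rose by 1.86 ± 0.38. The scavenging receptors Ackr3 and Ccrl2 fell by 0.77 and 0.85. In all 2 of the 6 tested receptors rose and 2 fell. Without Dabi-202 only 1 receptor was called higher and none lower, and the lower count was 1 without Cont_17 or any 1 sham, rivaroxaban or aPC library. The monocyte and neutrophil marker sums given above moved with these genes, and their part in the differences was not tested.

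Interleukin 1 genes rose together with their natural antagonist. Il1b was at 5.85 and 5.16 against 2.62 and 2.95, with 0.73 to 3.19 in the context libraries (2.72 ± 0.45, adjusted p = 0.0044). Il1rn, which blocks the interleukin 1 receptor, was at 5.55 and 4.54 against 1.97 and 2.03 (3.05 ± 0.47, adjusted p = 0.00327). Nlrp3 and Pycard, sensor and adaptor of the inflammasome that matures interleukin 1, rose by 1.91 ± 0.38 and 1.18 ± 0.23. With Csf1, Il1rl1 and Tnf this made 7 of 17 tested members, and none fell. Means were lower with dabigatran in 4. Pairs did not overlap in 10 with dabigatran higher and in 3 with it lower, and in those 3 the untreated pair lay above all 9 other libraries. Tnf was low, at 2.16 and 0.86 against 0.15 and -1.03. Il6 was at 4.68 and 2.82 against 1.77 and 2.97, and the pairs overlapped (adjusted p = 0.239). The count fell to 2 without Dabi-202, and Il1b and Il1rn were the 2 called with the 4 libraries alone. In the list of nuclear factor kappa B subunits and targets, 2 of 16 rose (Nfkbie and Nfkbid), and the median was -0.12. Nfkbia, the fast feedback inhibitor, fell, at 6.29 and 6.06 against 6.86 and 7.46. These counts are not far from the 8.71% and 5.08% of all tested genes and say little about the list. The higher count was 0 without Dabi-202 or Cont_19, 5 without Cont_17 and 1 without any 1 sham or rivaroxaban library, under the stricter filter or after quantile normalization. Nfkbia was lost without either dabigatran heart, with 2 falls called without Cont_17. No interferon-stimulated gene of 15 was called in limma's fit, where 4 had an unadjusted p under 0.05, all higher, and voom called 0. Both dabigatran values lay above both untreated ones in 8, and 1 gene was called higher without Cont_17. Complement receptors rose: C3ar1 was at 4.59 and 4.54 against 2.81 and 2.64, and C5ar1 at 5.32 and 5.12 against 3.46 and 3.70. With Cfp and Hp, 4 of 13 complement and acute phase genes rose, but the list had a median of -0.27 and lower means in 8. Pairs did not overlap in 4 genes with dabigatran higher and in 6 with it lower. Over all tested genes the shares were 27.0% and 21.5%, which apply to the interferon count as well. Serpina3n was the 1 gene called lower, at 7.36 and 6.99 against 9.14 and 8.05. The lower count was 0 without either dabigatran heart, either rivaroxaban library, Cont_17 or sham replicate 007, 2 without either aPC library and 4 without Cont_19, and it was 3 after median centring or quantile normalization.

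Genes for taking up and digesting debris rose in 11 of 18 cases, with a median of 0.88 and no member called lower. Tyrobp, the signalling adaptor of many myeloid receptors, rose by 2.22 ± 0.31 (adjusted p = 0.00213). Its partner Trem2, a lipid-sensing receptor of phagocytes, was at 2.58 and 2.84 against 0.07 and 0.21. Cd68, a lysosomal glycoprotein, was at 5.17 and 5.24 against 3.43 and 3.46, and the scavenger receptor Msr1 at 5.98 and 5.61 against 4.21 and 3.11. Leaving out Dabi-202 left 5 calls and Dabi-204 left 7, and 4 members were called with the 4 libraries alone. Monocyte markers moved with this list as given above.

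Matrix genes rose in a selective way. Of 19 genes for matricellular and crosslinking proteins 8 were called higher and none lower, with a median of 0.96. Fn1, fibronectin, was at 8.79 and 9.75 against 6.58 and 6.67, with 6.16 to 7.58 in the context libraries (2.64 ± 0.29, adjusted p = 0.000744). Postn, periostin of activated fibroblasts, was at 6.91 and 6.85 against 4.13 and 5.39. Wisp1 rose by 2.85 ± 0.40, and the collagen-crosslinking enzymes Loxl2 and Loxl4 rose by 1.17 ± 0.26 and 1.32 ± 0.33. Without Dabi-204 the count was 4, and Spp1, Tnc, Fn1 and Wisp1 were the 4 called with the 4 libraries alone. Among 32 collagens 8 rose and 3 fell. Col18a1, a basement membrane collagen, was at 4.69 and 4.93 against 2.95 and 3.46 (1.60 ± 0.25, adjusted p = 0.00327), and Col5a1, which starts collagen fibrils, at 5.86 and 7.12 against 5.31 and 4.59. The chief fibrillar collagens did not pass. Col1a1 was at 6.28 and 7.81 against 5.95 and 5.61, and Col3a1 at 7.17 and 8.95 against 6.75 and 5.83. Sham hearts had a mean of 7.67 for Col1a1, above the untreated values. For 7 of the 32 collagens the untreated pair lay below all 9 other libraries. Col13a1, Col22a1 and Col4a3 fell. The counts were 1 higher without Dabi-204 and 4 higher with 1 lower without Cont_19, 8 lower without Cont_17, 0 lower under the stricter filter, and 0 in each direction with the 4 libraries alone.

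Of 31 matrix proteases and inhibitors 4 rose and 3 fell, not far from the 8.71% and 5.08% of all tested genes, so the counts say little about the list. Mmp12, the macrophage elastase, was at 3.59 and 3.40 against -1.68 and -1.38, a log2 fold change of 5.02 ± 0.68 (adjusted p = 0.00178), and Mmp9 has been given above. Mmp13 and Mmp25 rose by 2.33 ± 0.58 and 1.80 ± 0.47. The vascular proteases Adamts9 (5.97 and 5.83 against 7.75 and 6.81) and Adamts1 (7.32 and 7.14 against 7.85 and 8.31) fell, as did Mmp2. Mmp9 and Mmp12 were the 2 called with the 4 libraries alone. The higher count was 2 without Dabi-202, 9 without Cont_17, 1 under the stricter filter and 2 after quantile normalization. The lower count was 0 without Dabi-202 and 1 without Dabi-204, Cont_19 or sham replicate 003. In the transforming growth factor beta family 3 of 18 rose (Inhba, Ltbp2 and Tgfb1) and 4 fell (Inhbb, Tgfbr2, Bmp4 and Smad6). Over all tested genes the shares were 8.71% and 5.08%. Ltbp2, which binds latent complexes in matrix, was at 4.82 and 5.77 against 2.17 and 2.95. Tgfbr2, the receptor that starts signalling, was at 6.37 and 6.72 against 7.47 and 7.48, and the bone morphogenetic protein Bmp4 at 2.39 and 2.58 against 3.86 and 5.64. Without Dabi-202 only 1 fall was called, and with the 4 libraries alone only Inhba and Ltbp2 were.

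The unfolded protein response of the endoplasmic reticulum gave the steepest single rise and a broad one. When misfolded proteins pile up in this compartment, the sensors Atf6 and Ire1 raise the genes of its chaperones and of the machinery that sends proteins out for degradation. The factors involved act on a promoter element of CCAAT and CCACG separated by 9 bases. Each sequence below is from the coding strand of a RefSeq promoter on GRCm38.p6 (mm10), 5′ to 3′, upstream of the transcription start, with both parts of the element in capitals. They are shown because these chaperone genes rose and carry the element exactly. In Derl3 and Creld2 the element lies on the other strand, so its parts read CGTGG and ATTGG.

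Derl3, chr10:75893212-75893290, plus strand: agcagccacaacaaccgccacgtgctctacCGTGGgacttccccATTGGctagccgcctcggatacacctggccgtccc
Creld2, chr15:88819490-88819568, plus strand: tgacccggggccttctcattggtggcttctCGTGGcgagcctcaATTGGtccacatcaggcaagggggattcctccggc
Pdia6, chr12:17266461-17266539, plus strand: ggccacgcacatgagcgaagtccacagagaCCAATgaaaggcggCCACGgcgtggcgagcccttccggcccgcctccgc
Hspa5, chr2:34771995-34772073, plus strand: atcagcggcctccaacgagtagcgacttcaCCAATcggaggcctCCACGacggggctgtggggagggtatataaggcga

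The element began 156 bases before the start in Derl3, 126 in Creld2, 98 in Pdia6 and 65 in Hspa5. Of 22 genes on the chaperone and degradation list 19 had a promoter sequence (250 bases before to 50 after the start), and 9 of these held the element on either strand: the above with Hsp90b1, Calr, Canx, Dnajc3 and Syvn1. Among all 10392 tested genes with a promoter sequence 18 held it, which is 0.173%. Of the 9 such genes off the list none was called higher, 2 were called lower and 7 were not called. Of the 9 on the list 6 were called higher, and of the 10 without an exact match 5 were. The element was searched after the expression values were known, and a match is a description of letters, not of binding.

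Of the 22 genes 13 rose and none fell, and the median log2 fold change was 1.08. Pairs did not overlap in 20, all with dabigatran higher, against 27.0% of all tested genes. Derl3 was at 4.87 and 4.11 with dabigatran and at -1.10 and -0.51 in untreated hearts, a log2 fold change of 5.29 ± 0.90 (adjusted p = 0.00512). It varied widely in the context libraries too, from 0.95 to 4.80. Sdf2l1, a cofactor of the main chaperone, was at 7.11 and 6.77 against 3.98 and 3.46 (3.22 ± 0.44, adjusted p = 0.00192). Pdia4, a disulfide isomerase, was at 8.13 and 8.01 against 5.73 and 4.54, and Creld2 at 7.41 and 6.72 against 4.89 and 4.29. Hspa5, the main chaperone and sensor partner known as BiP, was at 11.76 and 11.24 against 9.80 and 10.07 (1.56 ± 0.35, adjusted p = 0.0189). Herpud1, a degradation factor, gave -0.19 and was the only member with a value below 0, and Xbp1, the transcription factor of the Ire1 arm, was at 7.79 and 7.39 against 7.47 and 6.51 without passing. The untreated pair lay below all 9 other libraries in 14 of the 22 genes and the dabigatran pair above all 9 in 3. The summed level was 7539 and 8905 CPM with dabigatran, 3302 and 3486 CPM in untreated hearts and 4002 to 8563 CPM in the other 7. Leaving out Dabi-202 left 3 calls, Dabi-204 7 and Cont_19 8, and 7 genes were called with the 4 libraries alone.

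**Figure D5:**
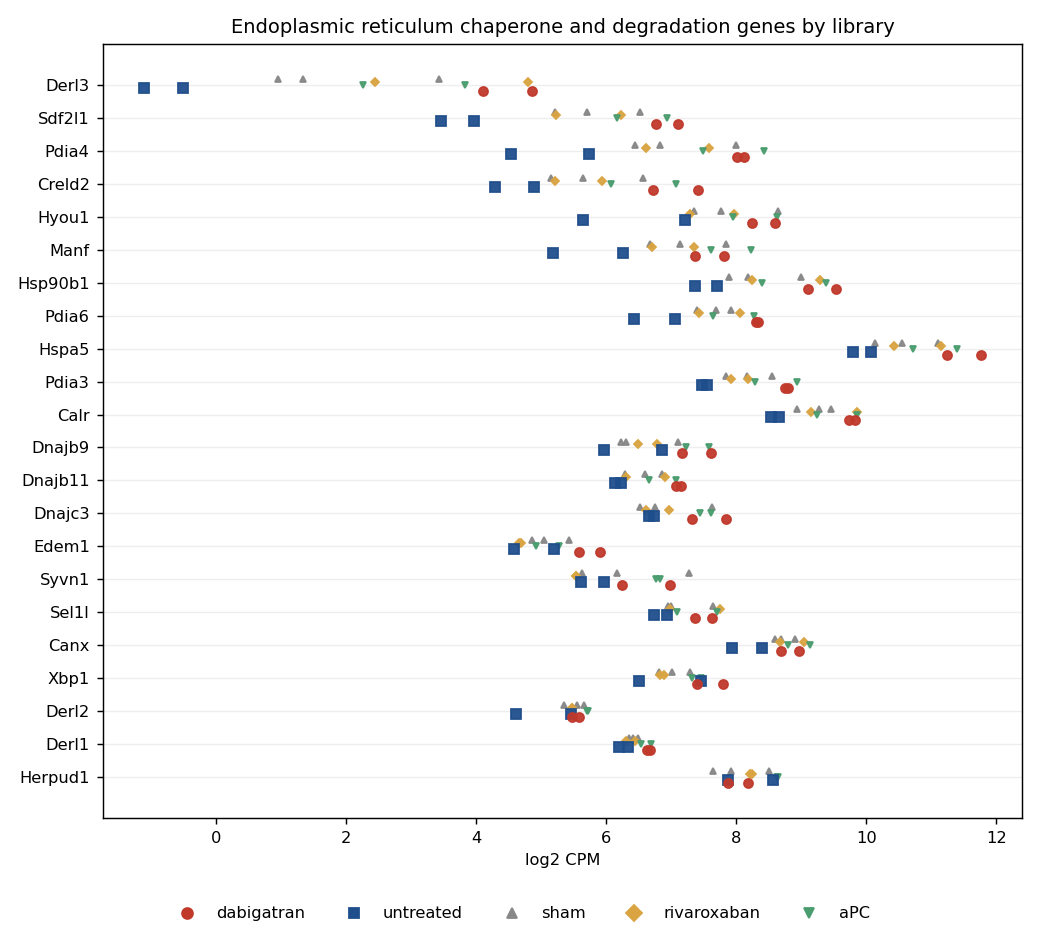
Each point is 1 library's log2 CPM for the 22 chaperone and degradation genes of the endoplasmic reticulum, ordered by log2 fold change of dabigatran against untreated. Blue squares (untreated) lie to the left of every other marker in 14 genes, and red circles (dabigatran) lie mostly within the upper part of the range of the sham, rivaroxaban and aPC libraries.

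The neighbouring stress programmes behaved differently in where the values lay. In the integrated stress response, which reduces translation and raises amino acid synthesis genes through Atf4, 7 of 15 rose, 1 fell and the median was 1.17. Mthfd2, a mitochondrial folate enzyme, was at 4.91 and 4.19 against 2.15 and 1.85, with 1.35 to 2.62 in the context libraries (2.55 ± 0.34, adjusted p = 0.00165). The serine synthesis enzymes Psat1 (5.53 and 4.94 against 3.46 and 3.48) and Phgdh (2.86 and 3.35 against 1.61 and 1.22) and the asparagine synthetase Asns (4.57 and 4.41 against 3.00 and 2.65) rose as well. Ddit4, an inhibitor of growth signalling that glucocorticoids and stress raise, fell, at 4.91 and 5.22 against 6.92 and 7.84 (-2.31 ± 0.34, adjusted p = 0.00264). The dabigatran pair lay above all 9 other libraries in 7 of the 15 genes and the untreated pair below all 9 in 1. Without Dabi-202 the higher count was 3, and with the 4 libraries alone it was 1. Of 16 cytosolic heat shock chaperones 5 rose. Hspb1, a small heat shock protein, was one of them, with Hsp90aa1 at 9.45 and 8.70 against 7.35 and 8.15, and Hsph1 at 6.56 and 6.29 against 5.22 and 5.46. The near-identical Hspa1a and Hspa1b, which can share reads, rose by 3.21 ± 0.83 and 2.91 ± 0.73. None was called without Dabi-202 or with the 4 libraries alone. Without Cont_17 the list had 1 rise and 3 falls.

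Most stress genes of cardiomyocytes rose, and genes of the contractile and electrical apparatus leaned lower. Of 12 cardiac stress and fetal genes 8 rose, with a median of 1.23, and the dabigatran pair lay above all 9 other libraries in 9. The mean was lower with dabigatran in 2, among them Myh7, given below, the only member with a lower pair that did not overlap. Xirp2, an actin-binding protein of the intercalated disc, was at 10.87 and 10.62 against 8.18 and 8.85, with 7.98 to 8.77 in the context libraries (2.23 ± 0.27, adjusted p = 0.00112). Nppa, atrial natriuretic peptide, was at 7.87 and 8.11 against 5.77 and 6.66 (1.77 ± 0.37, adjusted p = 0.0136). Nppb, the B-type peptide, was at 10.94 and 9.68 against 5.06 and 9.31. The untreated hearts lay far apart for Nppb, and it did not pass (adjusted p = 0.0768). Gdf15, a stress cytokine, was at 6.28 and 3.47 against 0.34 and 2.75, and Ankrd1, a stretch-responsive nuclear protein, at 13.32 and 12.58 against 11.48 and 12.29. Enah, Rcan1 and Flnc rose by 1.10, 1.06 and 1.35. The count was 4 after median centring, 1 without Dabi-202, 5 without Dabi-204 or sham replicate 003, 4 without sham replicate 006 or 007, and 3 without Cont_17 or without either rivaroxaban or either aPC library. Xirp2 and Sprr1a were the 2 called with the 4 libraries alone.

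Of 11 sarcomere genes 2 fell, Myh6 (14.31 and 14.41 against 15.14 and 15.54) and Tcap, a cap of the giant protein titin (9.23 and 9.27 against 9.93 and 10.76). Myh7, the slower myosin that adult mouse heart keeps low, belongs to the stress and fetal list. It was at 10.22 and 10.74 against 11.02 and 11.49 and did not pass (adjusted p = 0.142). The summed sarcomere level was 58951 and 58113 CPM with dabigatran and 81354 and 106108 CPM in untreated hearts. Of 21 calcium handling and ion channel genes 4 fell and none rose. Ryr2, the calcium release channel of the sarcoplasmic reticulum, was at 10.40 and 10.52 against 11.29 and 11.42 (-0.89 ± 0.19, adjusted p = 0.013), and Kcnh2, a potassium channel of repolarization, at 5.60 and 6.22 against 6.52 and 7.34. Atp2a2, the calcium pump, fell by 0.66. The sarcomere count was 0 without Cont_19 or either dabigatran heart, 4 without Cont_17 or with voom, and 1 after quantile normalization, with log2(CPM + 1) or without either rivaroxaban library, either aPC library or sham replicate 006 or 007. The channel count was 0 without Dabi-202 and 8 without Cont_17. It was 2 after quantile normalization, and also without Cont_19, either rivaroxaban library, either aPC library or sham replicate 006 or 007, and 0 in both lists with the 4 libraries alone. In the adrenergic and angiotensin list 3 of 13 fell, among them Grk5 and Agt, the angiotensin precursor (3.66 and 3.19 against 4.73 and 5.79), and 5 fell after median centring. Over all tested genes 5.08% were called lower, the share to set beside the sarcomere, channel and adrenergic counts.

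Many fatty acid genes fell. Heart muscle takes most of its energy from fatty acids, which enter mitochondria through the carnitine shuttle and are shortened by beta-oxidation. Of 23 tested genes of this route 13 fell and none rose, and the median log2 fold change was -0.58. Pairs did not overlap in 22, all with dabigatran lower, against 21.5% of all tested genes. Cpt2, the inner step of the carnitine shuttle, was at 6.84 and 6.96 with dabigatran and at 7.71 and 7.57 in untreated hearts, with 7.64 to 8.20 in the context libraries (-0.74 ± 0.13, adjusted p = 0.00635). Mlycd, which removes the malonyl-CoA brake on that shuttle, was at 6.22 and 6.18 against 7.11 and 7.36 (-1.03 ± 0.17, adjusted p = 0.0045). Lpl, which frees fatty acids from lipoproteins, was at 11.88 and 11.94 against 12.60 and 12.74, and Acadm, the medium-chain dehydrogenase, at 9.55 and 9.51 against 9.95 and 10.26. Hadha, of the trifunctional protein, fell by 0.53. Cd36, the fatty acid transporter, gave -0.34 without passing. The dabigatran pair lay below all 9 other libraries in 20 of the 23 genes. Sarcomere genes, as markers of cardiomyocytes, moved with this list: all 11 tested had lower means with dabigatran, with a median of -0.42 and summed levels of 58113 to 58951 CPM against 81354 to 106108 CPM. Their part in the fall was not tested. Leaving out Dabi-202 or Cont_19 left 4 calls and Dabi-204 left 3, and only Ucp3 was called with the 4 libraries alone. Of the regulators of these genes Klf15, which drives lipid and amino acid use, fell, at 4.96 and 5.39 against 6.77 and 6.46 (-1.44 ± 0.16, adjusted p = 0.000806), as did Hif3a. Ppara, the lipid-sensing nuclear receptor, was at 4.84 and 5.09 against 5.50 and 6.47 without passing. The regulator count was 4 without Cont_17.

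Other mitochondrial pathways moved less. In the breakdown of branched-chain amino acids Ivd (7.95 and 8.05 against 8.75 and 8.98), Bckdha, Bckdhb and Mccc2 fell, 4 of the 16 genes on the list with ketone and creatine enzymes. That count was 2 without Dabi-202 or Cont_19 and 10 without Cont_17. Of 24 tricarboxylic acid cycle and pyruvate dehydrogenase genes 14 had lower pairs that did not overlap, against 21.5% of all tested genes. The median was -0.35, and 3 fell (Cs, Pdhx and Idh2). The count was 8 after median centring and 1 after quantile normalization. It was 17 without Cont_17, 1 without sham replicate 007 and 0 without any 1 of the others. Among 78 respiratory chain subunits only Cox7b2 was called lower, with a median of -0.23, and 13 were called without Cont_17, 5 after median centring and 3 after quantile normalization. The Cox7b2 call was lost without either dabigatran heart, either rivaroxaban library, Cont_19 or sham replicate 003 or 007, under the stricter filter and with log2(CPM + 1). The 72 mitochondrial ribosomal proteins gave no call in limma's fit, where 6 higher and 1 lower had an unadjusted p under 0.05 and voom called 0, and their median was -0.01. The cytosolic ribosomal proteins lay higher: 15 of 70 rose, and the median was 0.45. In 61 the pairs did not overlap with dabigatran higher, against 27.0% of all tested genes. Rpl3 was at 9.19 and 8.92 against 8.11 and 7.62 (1.19 ± 0.20, adjusted p = 0.00453), and its muscle-specific relative Rpl3l fell, at 7.32 and 7.07 against 7.64 and 7.97. The Rpl3l call was lost without Dabi-204 or Cont_19. Ribosomal protein genes share reads with pseudogenes, which makes single members uncertain. The higher count ranged from 1 without Dabi-202 to 28 without Dabi-204, was 4 after median centring and 40 after quantile normalization, and was 7 without Cont_17 and 5 without Cont_19. Leaving out other libraries gave 4 (either rivaroxaban library or sham replicate 003), 5 (sham replicate 006) or 6 (either aPC library). None was called with the 4 libraries alone.

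Glycolysis genes moved in both directions. Eno1, the enolase, was at 8.69 and 8.47 against 7.76 and 7.73 (0.83 ± 0.14, adjusted p = 0.00453), and Pgam1, Hk1 and the glucose transporter Slc2a1 rose by 0.95, 0.71 and 0.87. Pfkfb3, which makes an activator of glycolysis, fell, at 4.80 and 4.43 against 5.52 and 6.66. In all 4 of 20 rose and 1 fell, and after median centring 2 rose and 2 fell. Only 1 rise was left without Dabi-202 or Cont_19. The fall was lost without Cont_19 or either dabigatran heart, and 6 falls were called without Cont_17 and 2 after quantile normalization, with log2(CPM + 1) and with voom.

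Genes that glucocorticoids raise were lower with dabigatran than in untreated hearts. Of 10 such genes 5 fell and none rose, with a median of -1.33. Klf9 was at 5.82 and 5.91 against 7.28 and 7.92, with 6.62 to 7.09 in the context libraries (-1.74 ± 0.20, adjusted p = 0.00081), so that both pairs lay outside that range, on opposite sides. Zbtb16 was at 6.55 and 5.70 against 8.59 and 8.90. Tsc22d3, known as Gilz, was at 6.00 and 5.69 against 6.97 and 7.06 (-1.17 ± 0.20, adjusted p = 0.0053). Sgk1, a kinase of salt transport, was at 6.50 and 6.47 against 7.41 and 8.54. Fkbp5, a receptor cochaperone, fell as well. The untreated pair lay above all 9 other libraries in 6 of the 10 genes and the dabigatran pair below all 9 in 2. The count was 3 without Dabi-204 or Cont_19, and Klf9 and Zbtb16 were called with the 4 libraries alone.

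Circadian clock genes leaned the same way. Of 17 tested 6 fell, 1 rose and the median was -0.64. Per1, a repressor of the clock that glucocorticoids also raise, was at 6.64 and 5.85 against 7.73 and 9.07 (-2.16 ± 0.47, adjusted p = 0.0165). Per2 was at 4.94 and 4.15 against 6.00 and 6.83, and Cry2 at 4.52 and 4.82 against 5.37 and 6.45. Rora and Tef fell by 1.34 and 0.87, and Bhlhe41 rose by 0.88 ± 0.14. The core activator Arntl was at 4.59 and 3.79 against 3.97 and 5.69, and the output genes Dbp and Nr1d1 overlapped between the pairs. The count of 6 became 2 when Dabi-202 was left out and 0 when Cont_19 was, and none was called with the 4 libraries alone. The labels give no time of day.

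Lists of the heart's structural cell markers had small medians, -0.14 for endothelial, 0.20 for fibroblast and 0.32 for smooth muscle and pericyte markers. Of 12 endothelial markers 2 rose and 4 fell, shares above the 8.71% and 5.08% of all tested genes. The untreated pair lay above all 9 other libraries in 5 of the 12 and below all 9 in 2. Aplnr, the apelin receptor, was at 3.61 and 4.90 against 1.95 and 1.90, with 4.02 to 5.70 in the context libraries, and Emcn, a sialoprotein of capillaries and veins, at 5.86 and 5.78 against 4.62 and 4.98. Cldn5, a tight junction protein, was at 5.10 and 5.18 against 7.15 and 6.42 (-1.64 ± 0.33, adjusted p = 0.0104), and Esam, Flt1 and Cdh5 fell by 0.83, 0.78 and 0.50. The summed endothelial level was 1606 and 1726 CPM with dabigatran and 1942 and 2012 CPM in untreated hearts. Without Dabi-204 only 1 rise and without Dabi-202 only 1 fall was called, and no endothelial marker was with the 4 libraries alone. Among 12 fibroblast markers only Meox1, a transcription factor of activated fibroblasts, rose, at 5.16 and 5.17 against 3.60 and 2.77, and 1 of 12 is near the 8.71% of all tested genes. Without Cont_19 there were 2 rises, and without Cont_17 there were 1 rise and 3 falls. Pdpn, a surface glycoprotein of lymphatic vessels that activated fibroblasts and macrophages also make, was at 6.77 and 6.68 against 4.15 and 3.54 (2.88 ± 0.28, adjusted p = 0.000599), and no other lymphatic marker of the 5 tested passed. Of 11 smooth muscle and pericyte markers Cnn1 and Cspg4 rose by 1.87 ± 0.49 and 0.55 ± 0.16, and neither was called without Dabi-202 or without Dabi-204. That count was 1 without any 1 sham or aPC library, without a filter or after median centring, and 0 after quantile normalization. Of the 3 tested platelet markers Pf4, platelet factor 4, rose, at 5.46 and 5.11 against 4.47 and 3.60, and was not called without Cont_19 or either dabigatran heart. Among the 3 platelet markers the pairs did not overlap in 2 with dabigatran higher and in 1 with it lower. In that 1 the untreated pair lay above all 9 other libraries. Wt1, a mesothelial and epicardial transcription factor and 1 of 3 mesothelial markers tested, fell, at 2.77 and 2.87 against 4.81 and 4.88. The mean was higher with dabigatran in 1 of these 3, which had an unadjusted p under 0.05 in limma's fit but no call, and its pairs overlapped. The 22 cell cycle genes had a median of -0.04, with lower means in 12, and 4 rose. This count, and the 2 rises among 11 smooth muscle and pericyte markers, stand beside 8.71% of all tested genes called higher. The 4 were led by Ccnd1, cyclin D1, at 6.89 and 6.86 against 5.39 and 5.28 (1.54 ± 0.17, adjusted p = 0.000808), followed by E2f1, Pcna and Mcm6. Without Cont_19 the cell cycle count was 2.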

How the data were processed

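The authors deposited 1 table of log2 values, log2 CPM after trimmed-mean (TMM) normalization, per the file's name. The submitters' processing notes list bcl2fastq, FastQC, Trim Galore, STAR, edgeR and build mm10, with no versions. For the read counter, annotation and strand setting no source used here gives a name, so overlapping and antisense genes are uncertain. Turned back to CPM, values were whole multiples of 1 step within 0.05 read, which gave the reads per library. A prior of about 2 reads was included, so folds of genes near the lowest value are understated.

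Genes with log2 CPM of at least 0 in at least 3 libraries entered limma-trend (limma 3.58.1, R 4.3.3, two-sided), in 1 fit of 5 group means over 11 libraries. A call is a Benjamini-Hochberg adjusted p under 0.05 over all 13541 genes, and "rose" and "fell" mean called. Numbers after ± are standard errors from limma, with n = 2 per group. A pair was above or below others when both its libraries were. Marker sums add CPM over the listed members.

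The text names the 12 largest called rises and falls with mean log2 CPM of at least 1 over the 4 libraries, leaving out predicted genes, up to 5 of each list's members in order of p, and a set of coagulation, inflammation and heart genes. A few genes that these rules select are not reported here. Some further list members were named after their values were seen. Members and lists were chosen with earlier results of these data known. Promoters are RefSeq sequences on GRCm38.p6. The fit was also run on simulated data in which all groups had the same spread for each gene. That simulation cannot test the calls under the wider spread of the untreated pair. Alternatives were filters, scalings, the 4 libraries alone, array weights, voom, and leaving out each library.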

Additional observations from a re-analysis of the deposited data

How the results depend on the processing

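The counts of calls differed between settings. Against 1180 genes called higher and 688 lower, the 4 libraries alone gave 126 and 44, array weights 104 and 27, and a log2 fold change of at least 1 gave 739 and 324. Leaving out 1 library gave 465 to 2994 higher and 197 to 1933 lower, lowest without Dabi-202 and highest without Cont_17. The lower count was 436 and 435 without the first and second rivaroxaban library. The cause was not tested. Without Cont_17, 1 gene fell in each of the fibrinolysis, cytokine and matricellular lists, and 2 in the lymphatic list. Counts of pairs that did not overlap stayed within 1.5 times under the filters and median centring. Of the called genes named in the text, none changed direction under any alternative, but many lost their call. Of 196 called genes followed, 24 stayed called with array weights and 55 with the 4 libraries alone. Array weights left no call in the chaperone, neutrophil, fatty acid, phagocyte and interleukin 1 lists. They left 1 of 9 rises among resident macrophage markers, 2 of 10 among monocyte markers and 4 of 5 among chemokines. Among named genes without a call, Thbd was -0.10 after median centring and ranged from -0.69 to 0.71 when 1 library was left out. The same range was -0.64 to 0.44 for F2rl3, -1.49 to 0.22 for Arntl, -0.61 to 1.01 for Cxcl1, -0.76 to 1.40 for Cxcl5, -0.47 to 0.87 for Dbp, -0.54 to 0.15 for Herpud1 and -0.42 to 0.95 for Nr1d1. No paired analysis was possible because the compared groups share no replicate numbers. With 2 hearts a group, an uncalled gene is not shown to be unchanged.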

Other observations

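Smaller groups of genes gave further values. Among 11 hypoxia-responsive genes 4 rose and none fell. P4ha1, a collagen prolyl hydroxylase subunit, was at 6.14 and 6.35 with dabigatran against 5.29 and 5.14 in untreated hearts (1.03 ± 0.20, adjusted p = 0.0104), and Vegfa, the vascular growth factor, at 8.13 and 8.34 against 7.42 and 7.59. Ero1l, an oxidase of protein folding, and Ankrd37 rose by 0.80 ± 0.17 and 1.54 ± 0.37. The count of 4 was 1 without Dabi-202 and 2 without Dabi-204 or Cont_19.

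Of 16 antioxidant genes Gsr, glutathione reductase, and Slc7a11, the cystine transporter, rose by 0.74 ± 0.18 and 1.20 ± 0.30, and Gstm1 fell by 0.45. Of 20 immediate-early genes Egr3 and Egr2 rose by 1.74 ± 0.45 and 1.43 ± 0.40, and Dusp1 fell, at 6.10 and 6.39 against 7.10 and 7.12. Of 17 cell death genes Bax and Mlkl, effectors of apoptosis and necroptosis, rose by 0.86 ± 0.19 and 0.82 ± 0.24, while Bcl2l11 and the death receptor Fas fell by 0.66 and 1.05. The counts in these 3 lists, 2 rises each and 1, 1 and 2 falls, are not far from the 8.71% and 5.08% of all tested genes and say nothing particular about them. In these 3 lists no rise was called without Dabi-202, and no gene was called with the 4 libraries alone. When 1 library was left out, a list had 0 to 5 rises and 0 to 4 falls. Under other filters and scalings a list had 0 to 3 rises and 0 to 2 falls.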
